A study of Mus musculus with 4 samples.

Results

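Txnip and its relatives were described in cells of mouse mammary tumours driven by polyoma middle T antigen (PyMT). The alpha-arrestin genes Txnip, Arrdc1, Arrdc2, Arrdc3 and Arrdc4 were taken by name together with Mlxip and Mlxipl, which encode the glucose-sensing factors MondoA and ChREBP. All 7 genes had a row in the deposited table of 50679 genes. Txnip was chosen by its FPKM values, since both libraries of mutant cells lay at least 4-fold below both libraries of wild-type cells. That comparison of Txnip is therefore given as a description, with no test.

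Alpha-arrestins share the arrestin fold with the beta-arrestins that quiet G protein-coupled receptors. Most carry short proline-rich motifs that bring NEDD4-family ubiquitin ligases to membrane proteins, which are then internalised. TXNIP binds thioredoxin and drives glucose transporters off the cell surface. Its gene is a classical target of MondoA and ChREBP, which pair with MLX on carbohydrate response elements when glucose phosphates accumulate. ARRDC4 is a second target of these factors, ARRDC3 acts on the beta2-adrenergic receptor and integrin beta4, and ARRDC1 buds vesicles from the plasma membrane.

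The cells came from PyMT tumours of mice 10 weeks old, were captured with an antibody against EpCAM and were grown in 10% serum after plating at 100000 cells. PCNA, the sliding clamp of DNA polymerases, was wild type (WT, n = 2) or the 211F form (n = 2), which the table's column names write as Y211F, a tyrosine replaced by phenylalanine. The labels leave unstated which promoter drives the oncogene and how much glucose the medium held. The design text calls the libraries independent biological repeats and does not name animals, so a p-value here reflects only how far these libraries vary. That spread includes the large differences in cell markers within each genotype that are given below. It may not be the spread between animals.

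All values are FPKM, fragments scaled to transcript length and to the mapped fragments of the library. Differences are 211F minus WT in log2(FPKM + 1), which understates the change of low genes. limma was applied to 12767 genes whose mean reached 1 FPKM, and 0 passed at an adjusted p of 0.05 (0% of those tested), so every comparison below is of values that did not pass. An unadjusted p under 0.05 was reached by 241 genes (1.89%), of which 127 were lower in 211F (0.995% of those tested).

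Epithelial transcripts were abundant in 3 of the 4 libraries. The summed level of 8 epithelial markers was 2918 FPKM for WT 1, 6.92 for WT 2, 3280 for 211F 1 and 3344 for 211F 2. The sum of 8 mesenchymal and fibroblast markers was 136 FPKM for WT 1, 2855 for WT 2, 2375 for 211F 1 and 8.50 for 211F 2. WT 2 thus nearly lacked epithelial transcripts, with Epcam at 0.893 FPKM. The mesenchymal sum was made of different genes in the 2 libraries where it was high. Col1a1 stood at 437 FPKM in WT 2 but at 2.70 FPKM in 211F 1, whose sum came mostly from Vim (1856 FPKM) and Acta2 (442 FPKM). Leukocyte markers summed to at most 0.293 FPKM, endothelial markers to at most 1.92 and adipocyte markers to at most 2.28, with Adipoq listed at 0 in all libraries. Results are therefore also given for WT 1 against 211F 2, the pair low in mesenchymal markers, and for WT 2 against 211F 1, the pair high in them. Fewer cells of a kind and less RNA per cell cannot be told apart in such bulk samples.

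The 250 bases before the start site are shown for Txnip, Arrdc4 and Arrdc3, the 3 genes with lower levels in both 211F libraries, and for Arrdc2, which was nearly level. The sequences are RefSeq's on GRCm38.p6, on the strand of the gene, from chr3:96557707-96557956 for Txnip (plus strand), chr7:68749239-68749488 for Arrdc4 (minus), chr13:80883134-80883383 for Arrdc3 (plus) and chr8:70839721-70839970 for Arrdc2 (minus). All 7 genes had at least 1 promoter entry. Capitals mark CCAAT boxes (CCAAT, or ATTGG on the other strand) and recognition blocks of the carbohydrate response element (CACGNG, or CNCGTG on the other strand).
Txnip: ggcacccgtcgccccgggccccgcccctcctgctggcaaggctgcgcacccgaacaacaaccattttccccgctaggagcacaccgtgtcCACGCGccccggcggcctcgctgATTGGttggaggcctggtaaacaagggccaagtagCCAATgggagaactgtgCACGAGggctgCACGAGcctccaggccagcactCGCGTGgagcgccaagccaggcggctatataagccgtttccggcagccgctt
Arrdc4: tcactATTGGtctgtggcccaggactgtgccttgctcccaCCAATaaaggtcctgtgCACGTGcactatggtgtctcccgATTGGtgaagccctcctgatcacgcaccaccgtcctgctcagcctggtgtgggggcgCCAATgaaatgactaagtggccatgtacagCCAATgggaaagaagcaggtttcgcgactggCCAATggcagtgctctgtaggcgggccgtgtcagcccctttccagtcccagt
Arrdc3: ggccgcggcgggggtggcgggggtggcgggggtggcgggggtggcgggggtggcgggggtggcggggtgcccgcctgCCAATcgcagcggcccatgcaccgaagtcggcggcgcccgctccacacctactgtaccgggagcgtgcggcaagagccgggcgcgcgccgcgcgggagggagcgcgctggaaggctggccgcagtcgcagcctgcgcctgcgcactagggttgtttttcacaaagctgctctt
Arrdc2: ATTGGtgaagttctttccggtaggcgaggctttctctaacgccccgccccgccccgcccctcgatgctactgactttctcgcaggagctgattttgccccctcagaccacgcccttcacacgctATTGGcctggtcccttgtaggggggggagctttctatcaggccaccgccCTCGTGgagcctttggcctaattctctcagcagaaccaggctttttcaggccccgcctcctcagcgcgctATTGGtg

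The Txnip promoter held 4 blocks, of which a CACGAG pair lay 5 bases apart, from base -85 to -69 before the start. Such a pair, in either orientation of each block, was found in 24 of 32851 RefSeq windows of the same length (0.0731%), while 23.5% held at least 1 block. Txnip also had 2 CCAAT boxes, at -137 and -102. At least 2 such boxes were found in 10.1% of windows. Arrdc4 had a single block, CACGTG at -193, with no pair, and 6 CCAAT boxes. At least 4 boxes occurred in 0.840% of windows. Among windows of the tested genes alone, 0.0905% held a pair and 34.3% at least 1 block. At least 2 boxes were found in 12.9% of these and at least 4 in 1.47%. The Arrdc3 window at the first of its RefSeq starts held 1 CCAAT box and 0 blocks, and the Arrdc2 window 3 boxes and 1 block. Among the members not shown, Arrdc1 had 2 blocks and 0 boxes, and Mlxip 0 blocks and 2 boxes. Mlxipl had 2 blocks and 1 box at the first of its starts. None of these held a pair. A match is a description of letters and says nothing of binding in these cells.

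**Figure D1:**
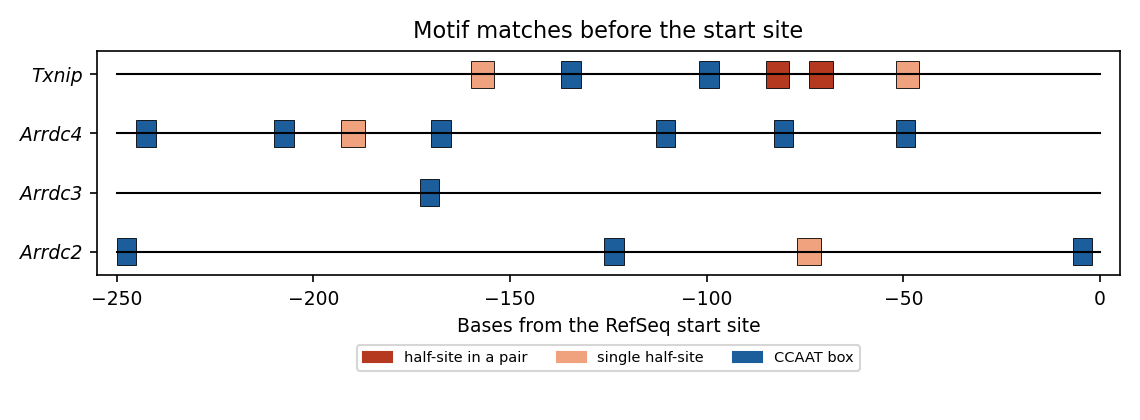
Motif matches in the 250 bases before the RefSeq start site of 4 genes. The horizontal axis gives bases from the start site; dark red bars are blocks of a pair 5 bases apart, light red bars are single blocks and blue bars are CCAAT boxes. The Txnip row alone among these 4 holds a pair, and the Arrdc4 row holds 6 CCAAT boxes.

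Txnip (ENSMUSG00000038393; GRCm38 chromosome 3, 96557957 to 96561883, plus strand) measured 98.1 FPKM (WT 1), 109 FPKM (WT 2), 14.0 FPKM (211F 1) and 21.4 FPKM (211F 2). Both WT libraries were high and close to each other, and both 211F libraries were low. The means were 104 ± 7.87 FPKM in WT and 17.7 ± 5.28 in 211F (SD, n = 2 each), a ratio of 5.86. The lowest WT value was 4.58 times the highest 211F value. Within the pair low in mesenchymal markers, WT 1 was 4.58 times 211F 2. Within the pair high in them, WT 2 was 7.82 times 211F 1. The WT libraries, which differed in cell markers, had a ratio of 0.898 for Txnip.

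Among the tested genes, 40 (0.313%) met the same 4-fold rule in the lower direction and 28 (0.219%) in the higher direction. Of the 40, 2 had a mean in WT of at least that of Txnip, Txnip among them. Among all 12767 tested genes, 864 did. The genes just inside the threshold were Steap4, a metalloreductase, with the lowest WT value 4.02 times the highest 211F value, and Cmbl, a hydrolase, at 4.32 times. Just outside were the kinesin gene Kif21b at 3.85 and the serpin gene Serpinb6b at 3.77. The Txnip values stand for about 9734 and 18663 fragments in WT 1 and WT 2 and about 1513 and 1995 in 211F 1 and 211F 2, read from the longest transcript. Exons of Txnip share 606 bp with Gm15441, an antisense gene on the other strand, which stood at no more than 0.107 FPKM in any library.

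In both WT libraries Txnip was the highest of the 7 genes, and in both 211F libraries it came second to Arrdc1. It made up 49.6% of the summed FPKM of the 5 alpha-arrestins for WT 1, 73.1% for WT 2, 30.1% for 211F 1 and 27.7% for 211F 2. That sum was 198 FPKM for WT 1, 150 for WT 2, 46.4 for 211F 1 and 77.3 for 211F 2. Without Txnip the sums were 99.7, 40.2, 32.4 and 55.9 FPKM in the same order, so the remaining members overlapped between the genotypes as a total.

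**Figure D2:**
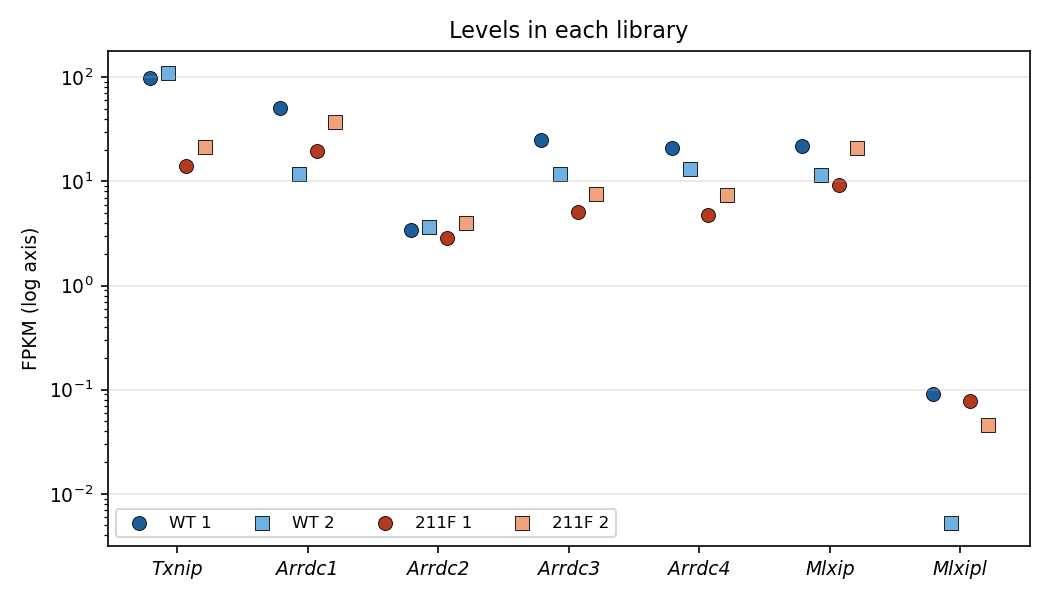
FPKM (log axis) of the 7 genes in each library; blue symbols are WT and red symbols 211F, circles replicate 1 and squares replicate 2. Both 211F points lie below both WT points for Txnip, Arrdc3 and Arrdc4, while the points of Arrdc1, Arrdc2 and Mlxip overlap.

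Arrdc4 (ENSMUSG00000042659; chromosome 7, 68736995 to 68749241, minus strand), the other glucose-responsive alpha-arrestin, measured 20.8 FPKM (WT 1), 13.01 FPKM (WT 2), 4.76 FPKM (211F 1) and 7.38 FPKM (211F 2). The groups did not overlap, and the lowest WT value was 1.76 times the highest 211F value. The means were 16.9 ± 5.48 FPKM in WT and 6.07 ± 1.85 in 211F (SD, n = 2 each). The difference was -1.33 ± 0.40 (SE) with a limma adjusted p = 0.9999. Of the 5 tested members other than Txnip, Arrdc4 alone had an unadjusted limma p under 0.05, at 0.030. Of all tested genes 1.89% were under 0.05. The unadjusted limma p of Arrdc3 was 0.051, and 0.047 with a pseudocount of 0.1. That of Arrdc4 was 0.082 with the replicate block. A difference at least as low as that of Arrdc4 was found in 390 of the tested genes (3.05%). The Arrdc4 difference was -1.38 for WT 1 against 211F 2 and -1.28 for WT 2 against 211F 1.

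Arrdc3 (ENSMUSG00000074794; chromosome 13, 80883384 to 80896042, plus strand), which directs receptors and integrin beta4 to degradation, measured 25.0 FPKM (WT 1), 11.7 FPKM (WT 2), 5.08 FPKM (211F 1) and 7.53 FPKM (211F 2). Again both 211F values were below both WT values, by a margin of 1.56 times, a margin that 1.78% of tested genes reached. The means were 18.4 ± 9.36 FPKM in WT and 6.30 ± 1.74 in 211F (SD, n = 2 each). The difference was -1.34 ± 0.49 (SE; limma adjusted p = 0.9999). It was -1.61 for WT 1 against 211F 2 and -1.07 for WT 2 against 211F 1. Leaving out WT 1, where Arrdc3 was highest, reduced it to -0.82.

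Arrdc3, Arrdc4 and Txnip were the members whose groups did not overlap, all of them lower in 211F. Groups failed to overlap in 3420 of the tested genes (26.8%), of which 1485 (11.6%) were lower and 1935 (15.2%) higher in 211F. Txnip was chosen for its separation, so 2 of the 5 other tested members bear on that comparison. A single gene compared by an exact permutation test of 2 against 2 libraries cannot go below p = 0.333 (two-sided).

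Arrdc1 (ENSMUSG00000026972; chromosome 2, 24925352 to 24935252, minus strand), which recruits ESCRT proteins to the plasma membrane, followed another order. It measured 50.6 FPKM (WT 1), 11.8 FPKM (WT 2), 19.8 FPKM (211F 1) and 37.0 FPKM (211F 2). The WT libraries were the highest and the lowest, and the 211F libraries lay between them. The difference was 0.13 ± 0.80 (SE; limma adjusted p = 0.9999). The spread between the WT libraries was 4.28-fold, larger than any ratio of a WT to a 211F library for this gene. Without WT 2 the difference was -0.88, and without WT 1 it was 1.13. The libraries low in mesenchymal markers, WT 1 and 211F 2, held the higher levels; the part of cell state in this was not tested.

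Arrdc2 (ENSMUSG00000002910; chromosome 8, 70835129 to 70839720, minus strand) was the lowest of the 5 and the most even, at 3.39, 3.68, 2.86 and 3.996 FPKM in WT 1, WT 2, 211F 1 and 211F 2. Its libraries overlapped, with both WT values between both 211F values. The difference was -0.05 ± 0.39 (SE; limma adjusted p = 0.9999), and its sign turned with quantile normalization (0.00043), so no direction is given. Arrdc5, the remaining mouse alpha-arrestin gene and not part of the set, was listed at 0 in all 4 libraries.

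**Figure D3:**
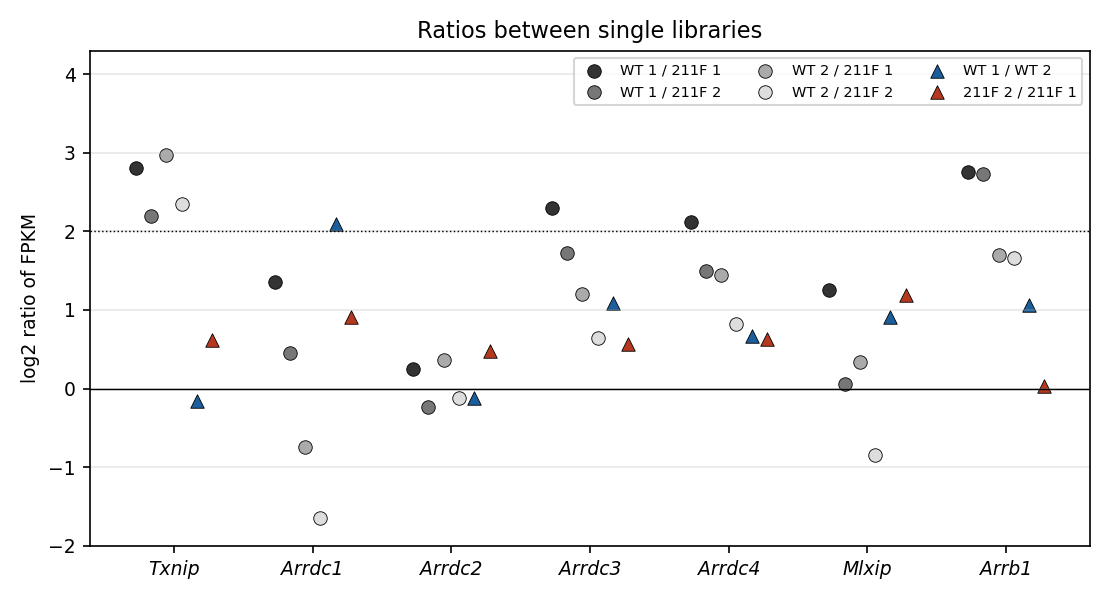
Log2 ratio of FPKM between single libraries for 6 members and Arrb1; circles are the 4 ratios of a WT to a 211F library, triangles the ratio within WT (blue) and within 211F (red), and the dotted line marks 4-fold. All 4 circles of Txnip lie above the dotted line, those of Arrdc3, Arrdc4 and Arrb1 lie above 0, and those of Arrdc1, Arrdc2 and Mlxip fall on both sides of 0.

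Mlxip (ENSMUSG00000038342; chromosome 5, 123394798 to 123457932, plus strand), which encodes MondoA, a glucose-sensing activator of Txnip, measured 21.9 FPKM (WT 1), 11.6 FPKM (WT 2), 9.18 FPKM (211F 1) and 20.9 FPKM (211F 2). The 2 highest values came from the libraries low in mesenchymal markers, 1 of each genotype. The difference was -0.19 ± 0.55 (SE; limma adjusted p = 0.9999).

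Mlxipl (ENSMUSG00000005373; chromosome 5, 135089890 to 135138382, plus strand), which encodes ChREBP of liver and fat, was at 0.0916, 0.00523, 0.0785 and 0.0459 FPKM in WT 1, WT 2, 211F 1 and 211F 2. These values correspond to about 11.6, 1.14, 10.9 and 5.47 fragments if the low values of long genes give the worth of a fragment. It was under the filter of 1 FPKM and was not tested. Mlx, the shared partner of both factors, was at 26.4, 25.4, 20.5 and 26.1 FPKM, a difference of -0.15 ± 0.26 (SE).

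The likeness between genes was measured as the root mean square distance of their centred log2(FPKM + 1) values over the 4 libraries. Arrdc3 and Arrdc4 were 0.1402 apart. Of 12766 other tested genes, Arrdc3 ranked 3rd in nearness to Arrdc4, and Arrdc4 ranked 4th in nearness to Arrdc3. Seen from Txnip, Arrdc4 was at a distance of 0.654 (rank 64) and Arrdc3 at 0.722 (rank 99). The reverse ranks were far larger, with Txnip at rank 2203 from Arrdc4 and at rank 2636 from Arrdc3. Arrdc1 was at 1.53 from Txnip (rank 10023) and Mlxip at 1.23 (rank 3594).

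The 10 named genes nearest to Txnip lay at distances of 0.256 to 0.460. Cebpd, a C/EBP transcription factor, came first, at 21.9 and 37.3 FPKM (WT) versus 4.18 and 6.85 FPKM (211F). Ypel3, a growth-restraining gene of the Yippee family, stood at 36.6 and 31.9 FPKM against 6.74 and 11.3. Macrod1, an ADP-ribose hydrolase, stood at 10.7 and 9.56 FPKM against 1.46 and 2.97. The others were Kcnj2, a potassium channel, Abca1, a cholesterol exporter, Adamts9, a matrix protease, Kif21b, Ephx1, an epoxide hydrolase, Rab7b, an endosomal GTPase, and Capn5, a calpain. Likeness to Txnip here is likeness in the contrast for which Txnip was chosen, so it is given as a description.

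The named gene nearest to Arrdc4 was Stat5a, the prolactin-activated transcription factor, at a distance of 0.101. It had 29.3 and 18.6 FPKM (WT) versus 7.88 and 9.61 FPKM (211F). Gabarapl1, an autophagosome protein, was at 102 and 69.5 FPKM (WT) versus 34.6 and 43.8 FPKM (211F), a distance of 0.141. Hivep3, a zinc finger factor, was among the 5 named genes nearest to both Arrdc3 and Arrdc4, and Lrrc32, which presents latent TGF-beta, among those of Arrdc4. The named gene nearest to Arrdc3 was Zfp395 at 0.128, and the histone deacetylase Hdac11 was at 0.161. Around Arrdc1 the nearest named genes were Srd5a1, Chd7, Klhl36, Txndc16 and Slc8b1. Around Arrdc2 they were Ccna2, Igip, Wdr26, Ptprj and Nmnat1, and the groups of all 10 overlapped.

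**Figure D4:**
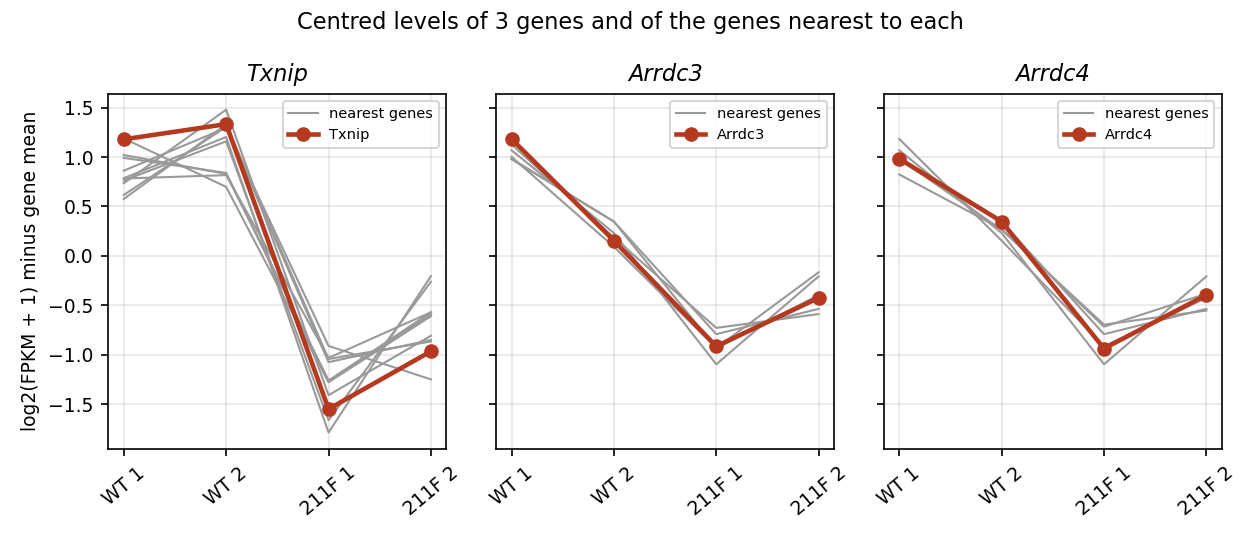
Level of each gene in each library as log2(FPKM + 1) minus the mean of the gene. Red is the gene given above each panel, and grey the 10 nearest named genes (Txnip) or 5 nearest named genes (Arrdc3 and Arrdc4). The lines join values of the same gene and imply no order of libraries. WT 1 and WT 2 are nearly level for Txnip, whereas WT 2 lies below WT 1 for Arrdc3 and Arrdc4.

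Genes around the alpha-arrestins were taken from 12 lists, and 0 of their members passed the limma test after adjustment over all genes. Among all tested genes the median difference was 0.03, with 5989 negative and 6778 positive. Of the arrestin-fold genes outside the set, Arrb1, which encodes beta-arrestin 1, was at 22.3 and 10.7 FPKM (WT) versus 3.30 and 3.37 FPKM (211F). Its groups did not overlap, and the difference was -1.93 ± 0.46 (SE; limma adjusted p = 0.9999). Arrb2, beta-arrestin 2, was at 18.8, 11.01, 18.3 and 18.4 FPKM in WT 1, WT 2, 211F 1 and 211F 2, and the retromer gene Vps26a at 30.8, 34.8, 45.1 and 32.7. The groups of both overlapped.

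In the network of MLX and MAX, 7 of 11 tested genes were lower in 211F on average, the median being -0.18. Mxi1, a MAX partner that opposes MYC, was at 12.2 and 13.1 FPKM (WT) versus 5.25 and 5.62 FPKM (211F) (-1.09 ± 0.29, SE). Max was at 41.7 and 33.8 FPKM against 55.3 and 47.6, and Mxd4, another antagonist of MYC, at 28.2 and 25.3 against 14.9 and 24.8. The groups of these 3 genes did not overlap, Max being higher in 211F. In the whole list 2 genes were lower and 2 higher without overlap, the other higher gene being Mga. Of all tested genes 11.6% were lower and 15.2% higher in that way. The direction of the list turned with the libraries used, since its median was 0.02 without WT 1 and 0.06 without 211F 2, each with 6 of 11 positive, -0.10 without 211F 1, and 0.16 for WT 2 against 211F 1 alone.

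Of 9 tested further genes that MondoA and ChREBP are known to raise, 6 were negative, with a median of -0.46. Groups did not overlap only for Tkfc (5.10 and 6.56 FPKM (WT) versus 3.89 and 3.96 FPKM (211F)). That is 1 of the 9, lower in 211F, beside 11.6% of all tested genes that were lower without overlap. Klf10, a zinc finger repressor, was at 26.002, 18.5, 23.3 and 63.3 FPKM in WT 1, WT 2, 211F 1 and 211F 2. Scd1, a fatty acid desaturase, was at 142, 26.1, 39.8 and 0.161 FPKM, lowest in a single library. Pklr and G6pc, liver targets, were at or below 0.0122 FPKM. The list's median was -0.07 without WT 1, with 5 negative and 4 positive, -0.25 without 211F 2 and -0.0016 for WT 2 against 211F 1 alone.

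Glucose transporters, the cargo of TXNIP, and hexokinases had 6 of 7 tested genes negative, with a median of -0.66. Slc2a1 (GLUT1) was at 69.4 and 49.97 FPKM (WT) versus 41.7 and 32.8 FPKM (211F) (-0.66 ± 0.29, SE; limma adjusted p = 0.9999). Slc2a8 (GLUT8) was at 8.78 and 9.60 FPKM against 4.31 and 5.12. Hk2 was at 16.3, 23.9, 16.5 and 8.34 FPKM in WT 1, WT 2, 211F 1 and 211F 2, with overlap. Without WT 1 the list's median was -0.24, with 4 negative and 3 positive, and for WT 2 against 211F 1 alone it was -0.07.

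The thioredoxin system was split, with 9 of 20 genes positive and a median of -0.06. Txn1, the thioredoxin that TXNIP binds, was at 219, 188, 161 and 226 FPKM in WT 1, WT 2, 211F 1 and 211F 2. Glrx5, a mitochondrial glutaredoxin, was at 29.1 and 31.5 FPKM (WT) versus 44.3 and 51.7 FPKM (211F), Txnl1 at 53.7 and 46.1 against 76.1 and 67.3, and Txndc12 at 54.7 and 72.8 against 41.8 and 45.3. Each of the latter 3 had groups that did not overlap. In the whole list of 20, 4 genes were higher and 4 lower in 211F without overlap, beside 15.2% and 11.6% of all tested genes. The list's median was positive without WT 1 (0.08), 211F 1 (0.017) or 211F 2 (0.019), and -0.12 without WT 2.

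Of 9 tested NEDD4-family ligases and adaptors 5 were positive, with a median of 0.15, which was 0.32 without WT 1, 0.06 without WT 2 and 0.03 without 211F 1. Itch, a ligase of TXNIP, was at 32.5, 29.2, 27.04 and 31.5 FPKM in WT 1, WT 2, 211F 1 and 211F 2. Smurf1 was at 45.2 and 33.1 FPKM (WT) versus 53.9 and 71.8 FPKM (211F), Ndfip1 at 98.1 and 107 against 136 and 130, and Nedd4 at 543 and 401 against 337 and 288. Of 9 genes of ESCRT and endosomal sorting 6 were positive, with a median of 0.22. Leaving out 211F 2 took that median to 0.02, with 5 of 9 positive, and leaving out WT 1, WT 2 or 211F 1 took it to 0.10, 0.13 or 0.11. Tsg101, which ARRDC1 binds, was at 78.9 and 61.9 FPKM against 90.4 and 85.4, Pdcd6ip at 104 and 85.1 against 127 and 124, and Chmp4b at 110 and 129 against 98.4 and 104.

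Of 10 reported partners and cargo 7 were negative, with a median of -0.11. Without 211F 1 only 4 were negative and the median turned to 0.11. Without WT 1 it was -0.018 with 5 negative, without WT 2 -0.34 and without 211F 2 -0.40. Ddit4, whose protein forms a complex with TXNIP, was at 81.3 and 31.7 FPKM (WT) versus 23.3 and 25.0 FPKM (211F). Slc11a2, an iron transporter sorted through ARRDC4, was at 32.0 and 49.2 FPKM against 18.3 and 26.2. Itgb4, the cargo of ARRDC3, was at 135, 0.558, 76.6 and 356 FPKM in WT 1, WT 2, 211F 1 and 211F 2, so WT 2, which nearly lacked epithelial markers, was by far the lowest. The inflammasome list had 4 tested genes, 2 negative and 2 positive, and without WT 2 3 of the 4 were positive. Casp1 was at 14.2, 6.38, 20.6 and 13.4 FPKM, Il18 at 2.34, 17.6, 6.09 and 3.05 and Gsdmd at 0.103, 24.3, 4.80 and 2.98, in the order WT 1, WT 2, 211F 1 and 211F 2, all with overlap. Nlrp3, the sensor reported to bind TXNIP, was at or below 0.211 FPKM.

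The list of genes raised by FOXO factors or by loss of growth factors, which also holds Foxo1, Foxo3 and Foxo4 themselves, had 13 of 14 tested members negative. Its median was -0.71. In 8 of the 14, Foxo1 and Foxo3 among them, both 211F libraries lay below both WT libraries, where 11.6% of all tested genes did. Bcl2l11 (BIM, a cell death gene) was at 14.5 and 24.4 FPKM (WT) versus 6.57 and 5.69 FPKM (211F) (-1.48 ± 0.38, SE; limma adjusted p = 0.9999). Sesn1, a stress-induced restrainer of growth signalling, was at 13.1 and 13.4 FPKM against 5.10 and 4.56, and Gabarapl1 is given above. For WT 1 against 211F 2 alone 14 of 14 were negative (median -0.63), and for WT 2 against 211F 1 alone 11 of 14 (median -0.57). Without each library in turn, 10 to 13 of 14 were negative. The list was chosen with earlier results of these data known, and its count is not independent evidence.

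Glucocorticoid-responsive genes had 10 of 11 tested members negative, with a median of -0.52, and 4 in which both 211F libraries lay below both WT libraries, beside 11.6% of all tested genes. Cebpd is described above, and Ddit4 belongs to this list too. Per1, a clock gene, was at 15.0 and 14.2 FPKM (WT) versus 7.74 and 12.4 FPKM (211F). Without WT 2 only 6 of 11 were negative (median -0.105), and without 211F 2 the median was -0.106. Genes of the AMPK and mTOR complexes had 7 of 11 negative, with a median of -0.15. Without WT 2 this turned to 3 of 11 negative and a median of 0.17, and without 211F 1 the median was -0.27. Prkag1, Tsc1 and Prkab1 had groups that did not overlap, with differences from -0.44 to -0.28. They were the only 3 of the 11, all lower in 211F, beside 11.6% of all tested genes.

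**Figure D5:**
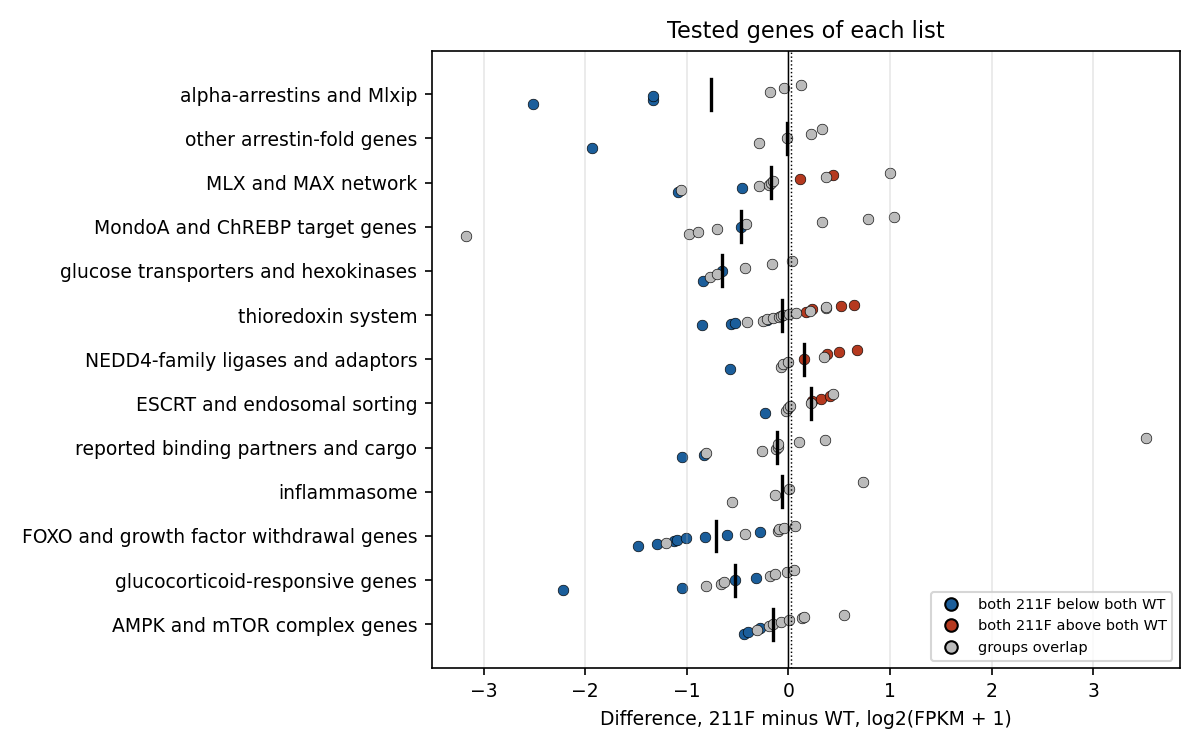
Difference (211F minus WT, log2(FPKM + 1)) of each tested gene in 13 groups of genes; blue points have both 211F libraries below both WT libraries, red points both above, grey points overlap, black bars are medians and the dotted line is the median of all tested genes (0.03). The median bar of the FOXO and growth factor withdrawal genes stands at -0.71 and that of the thioredoxin system at -0.06.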

How the data were processed

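RNA of 4 libraries was measured, 2 of each genotype. The authors deposited FPKM values as a table of genes by libraries. TopHat2 2.0.13, DESeq2 and GRCm38 are named, per the submitters' processing notes, with no role; nothing at hand says which program made the FPKM values, whether it used strand, or whether libraries were rescaled. FPKM sums were 544399 to 564977.

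Of 50679 identifiers 50369 had a symbol, and positions are those of GENCODE M21. Low values of long single-transcript genes were whole multiples of a step (tolerance 0.1 fragment) for 88.5% to 92.2% of values, worth 0.0166 to 0.0304 FPKM in 1 kb. Read by these steps, depth relative to WT 1 was 1.72 in WT 2, 1.09 in 211F 1 and 0.938 in 211F 2. A value of 3 fragments equals 0.0176 to 0.0323 FPKM for Txnip.

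limma 3.58.1 in R 4.3.3 was fitted to log2(FPKM + 1) of genes whose mean reached 1 FPKM, two-sided, with an intensity trend and Benjamini-Hochberg adjustment; it was tested on simulated data. Pseudocounts of 0.1 and 5, other filters, quantile and median-ratio scaling, no trend, the replicate block and leaving out each library were tried. Members and lists were chosen with earlier results of these data known. Named genes were the members, up to 3 genes of smallest p in each list, list members described by role, the 10 genes nearest to Txnip, the 5 nearest to each other alpha-arrestin and those beside the 4-fold threshold; symbols of predicted genes, clones, pseudogenes, small RNAs and the mitochondrial genome were skipped. A symbol of the sorting list, Vps28, is not analysed here. No protein sequence was used.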

Additional observations from a re-analysis of the deposited data

How the results depend on the processing

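limma called 0 genes in the reported setting and in each of its 13 alternatives, with 241 genes at an unadjusted p under 0.05, 142 with the replicate block, 745 with no filter (more genes tested), and 221 to 836 without each library, 836 being without WT 1. Genes whose groups did not overlap numbered 3420, and 6266 with no filter (more genes tested); without each library they numbered 7371 to 9028, since 1 library against 2 separates more easily. The Txnip difference of -2.51 was -2.14 for WT 1 against 211F 2, -2.88 for WT 2 against 211F 1 and -2.80 to -2.22 without each library. The 4-fold rule that chose Txnip covers every pair of a WT and a 211F library, so these values are a description only. Arrdc3 (-1.85 to -0.82) and Arrdc4 (-1.65 to -0.97) kept their sign in 15 of 15 alternatives each. Both 211F values of each gene lay below both WT values. Leaving out a library, using a single pair, adding a block or changing the pseudocount or filter therefore could not turn the sign. The kept sign is a description only. Arrdc1 turned to -0.44 for WT 1 against 211F 2 and ranged from -0.88 to 1.13 without each library. Arrdc2 turned to 0.00043 with quantile normalization and 0.19 for WT 1 against 211F 2, and ranged from -0.23 to 0.14 without each library. Mlxip ranged from -0.74 to 0.37 without each library. Other turned signs were those of Arrb2 (-0.0304 for WT 1 against 211F 2; -0.0324 without WT 2 to 0.69 without WT 1), Vps26a (-0.0028 without 211F 1 to 0.45 without 211F 2), Scd1 (0.59 for WT 2 against 211F 1), Casp1 (-0.0819 for WT 1 against 211F 2), Il18 (0.28 for the same pair and -1.80 without WT 1 to 0.68 without WT 2) and Gsdmd (0.80 with a pseudocount of 0.1, 1.85 for the same pair, 0.14 without 211F 2, and -2.40 without WT 1 to 2.12 without WT 2); the cause was not tested. Negative members of the glucocorticoid list numbered 10, and 6 without WT 2 (6 to 11 without each library). Those of the glucose list numbered 6 of 7, 4 of 7 without WT 1 and 11 of 15 with no filter. The replicate numbers are not said to pair libraries; across genes, r was -0.465 between deviations of libraries with the same number, and the block added no call. The crossed pairing, chosen after seeing the data, gave 0 calls and 520 genes at an unadjusted p under 0.05. With 1 library missing, the lone one is assumed to vary like the others. Whether Mlxipl differed was not detectable at this depth.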

Other observations

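The pair of blocks in the Txnip promoter was also found before 10 other tested genes, taken after the promoter search and with no test. The groups did not overlap in 0 of these 10, beside 26.8% of all tested genes; 6 were negative and 4 positive, with a median difference of -0.05. Fnip1, a folliculin partner that acts on AMPK and mTOR signalling, was at 6.92, 15.6, 11.03 and 5.50 FPKM in WT 1, WT 2, 211F 1 and 211F 2. Nfkb2, an NF-kB subunit, was at 23.1, 45.5, 34.8 and 53.5 FPKM, and Rbbp4, a histone chaperone, at 61.4, 43.1, 49.2 and 45.8. For promoters with at least 4 CCAAT boxes, as Arrdc4 has, 84 of 169 tested genes were negative and 85 positive, and the groups did not overlap in 27 that were lower and 23 that were higher in 211F, beside 11.6% and 15.2% of all tested genes.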
